A study of Mus musculus with 11 samples.

Results

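The genes described here carry out or trigger inflammatory forms of cell death: *Zbp1*, *Ripk1*, *Ripk3*, *Mlkl*, *Casp1*, *Casp4*, *Casp8*, *Gsdmd*, *Fas* and *Tnfsf10*. They were chosen by name, and each of the 10 was found among the 26283 genes of the deposited table and among the 19232 genes tested. RNA came from mammary tumors of 18-week-old female C57BL/6 mice, 6 tumors labelled as *Pcbp1* knockout (PyMT *Pcbp1*–/–) and 5 labelled as wild-type (PyMT *Pcbp1*+/+). All mice carried MMTV-PyMT, a viral oncogene that drives mammary tumors, and MMTV-Cre, a recombinase expressed from a promoter active in mammary epithelium; the groups differed in having *Pcbp1*(fl/fl) or *Pcbp1*(wt/wt) alleles. Deletion is therefore directed to epithelial cells, while a bulk tumor sample also holds immune, stromal and vascular cells. In such samples, fewer cells of a type and less RNA per cell cannot be told apart.

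Inflammatory cell death ends in rupture of the plasma membrane and release of the cell's contents. In necroptosis, RIPK3, activated through RIPK1 or through the nucleic acid sensor ZBP1, phosphorylates MLKL, which permeabilizes the membrane, while caspase-8 holds this route in check. In pyroptosis, inflammasomes activate caspase-1, or lipopolysaccharide activates caspase-11 (encoded by *Casp4* in the mouse), and either enzyme cuts gasdermin D into a pore-forming fragment, whereas the receptor FAS and the ligand TRAIL (encoded by *Tnfsf10*) signal to caspase-8.

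Expression was compared between the groups from estimated counts per gene, which summed to between 10543200 and 14092200 per tumor. Values per tumor are given in CPM, the deposited counts scaled by each tumor's total, and 3 counts corresponded to between 0.213 and 0.285 CPM, a limit that covers counting error only. Fold changes are PyMT *Pcbp1*–/– against PyMT *Pcbp1*+/+ on the log2 scale from edgeR's quasi-likelihood test, with p-values adjusted by Benjamini-Hochberg over all genes tested and an adjusted p under 0.05 as the threshold. The targeted gene *Pcbp1* ranged from 15.4 to 33.6 CPM with a median of 20.9 CPM in PyMT *Pcbp1*–/– tumors. It stood at 268, 271, 225, 220 and 259 CPM in PyMT *Pcbp1*+/+ replicates 1 to 5, so that every tumor matched its label. One tumor, PyMT *Pcbp1*+/+ replicate 5, had lower values than the rest of its group for several of the genes below, and several calls are given with and without it.

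*Zbp1* was the member that passed the test. This gene (ENSMUSG00000027514.14, minus strand of chromosome 2 of GRCm38, 173206612 to 173218923) encodes a sensor of Z-form nucleic acids. It had 25.5, 22.9, 30.8, 29.3 and 11.1 CPM in PyMT *Pcbp1*+/+ replicates 1 to 5. In PyMT *Pcbp1*–/– tumors it ranged from 6.58 to 10.2 CPM with a median of 8.48 CPM. The groups did not overlap, and the gap between them was set by PyMT *Pcbp1*+/+ replicate 5, whose value lay next to the highest PyMT *Pcbp1*–/– value, from replicate 6. The estimated counts behind these values were 74 to 132 in PyMT *Pcbp1*–/– tumors and 124 to 351 in PyMT *Pcbp1*+/+ tumors, so that raw counts overlapped where CPM did not. The mean was 23.9 ± 7.82 CPM (SD, n = 5) for wild-type and 8.45 ± 1.30 CPM (SD, n = 6) for knockout tumors. A log2 fold change was estimated at -1.49 (standard error, SE, 0.22, 95% interval -1.97 to -1.02, edgeR adjusted p = 0.00504), a ratio of 0.355. Without PyMT *Pcbp1*+/+ replicate 5 it was -1.66 (edgeR adjusted p = 0.000329). With the replicate number added as a block, which leaves 10 tumors, it was -1.50 and was not called (edgeR adjusted p = 0.0532).

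Of the 10 members, 1 was lower and 0 were higher at an adjusted p under 0.05 (edgeR), against 1.66% and 0.608% of all genes tested. DESeq2 and limma-voom also called 0 members higher. At an unadjusted p under 0.05, 1 member was lower (*Zbp1*) and 1 was higher (*Casp1*), against 10.5% and 8.19% of all genes. With an unadjusted p under 0.001 and a change over 2-fold, 1 member was lower and 0 were higher, where 0.572% and 0.229% of genes met these criteria. The groups did not overlap in CPM for 1 member, *Zbp1*, while 2.02% of genes lay apart with PyMT *Pcbp1*–/– tumors lower and 1.27% with PyMT *Pcbp1*–/– tumors higher. Log2 fold changes were negative for 5 members and positive for 5, and their median was close to that of all genes tested (-0.00047 and -0.00012). Without PyMT *Pcbp1*+/+ replicate 3 these medians were 0.10 and 0.0029, with 3 members negative, and without PyMT *Pcbp1*+/+ replicate 2 they were 0.08 and 0.0076, with 4 negative. The negative sign of *Mlkl*, *Gsdmd* and *Tnfsf10* turned when single PyMT *Pcbp1*+/+ tumors were left out, as described for each gene.

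**Figure D1:**
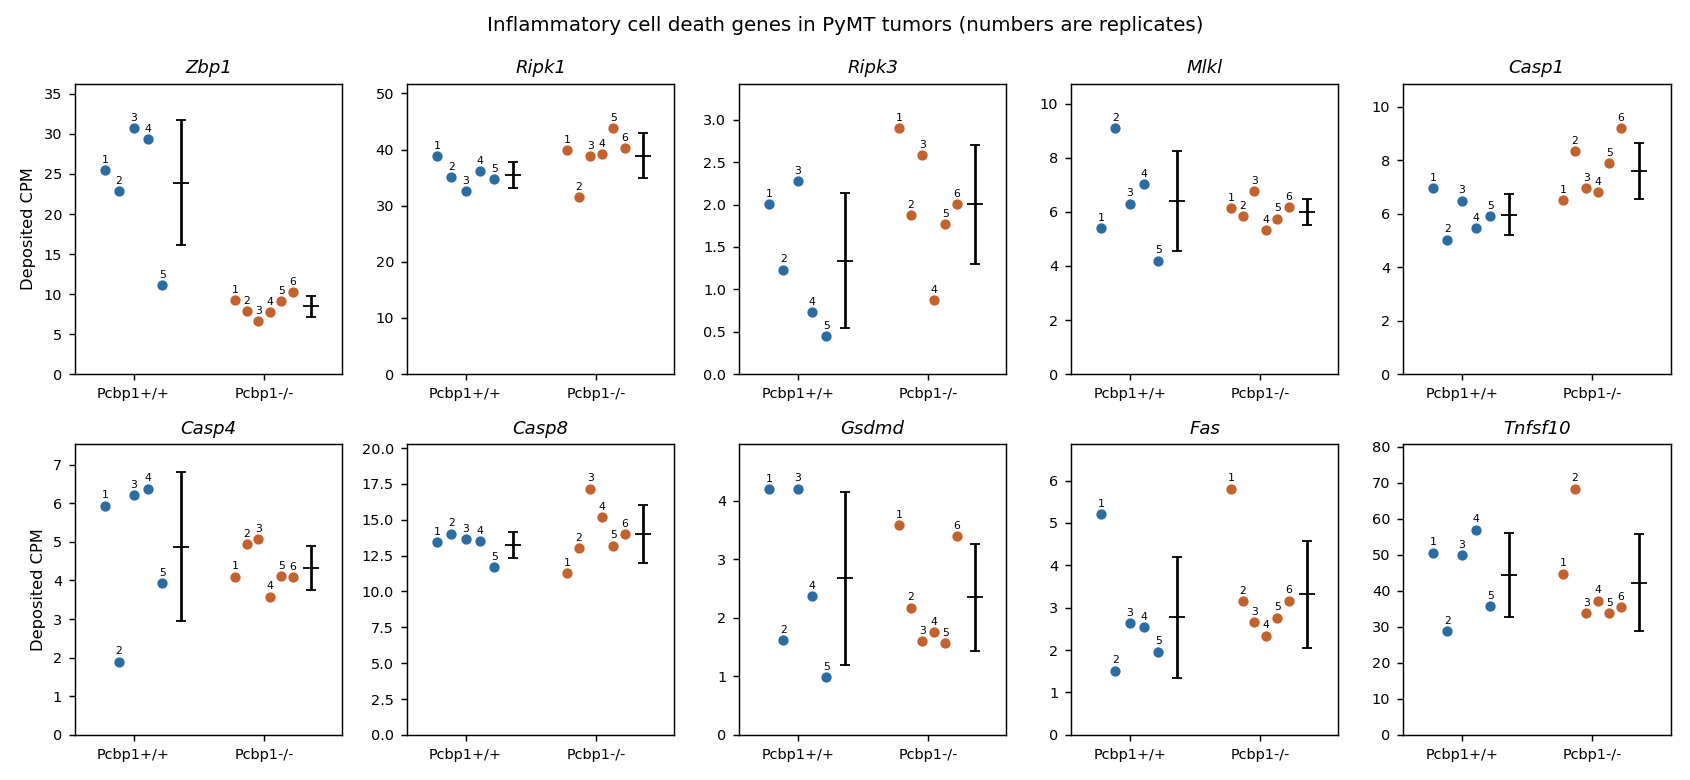
Deposited CPM (vertical axes, each from 0) of the 10 members in every tumor, with PyMT *Pcbp1*+/+ tumors in blue and PyMT *Pcbp1*–/– tumors in orange; digits are replicate numbers, and bars are the mean ± SD. *Zbp1* lies between 6.58 and 10.2 CPM in PyMT *Pcbp1*–/– tumors, below each PyMT *Pcbp1*+/+ tumor, and the groups overlap for the other 9 genes.

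The kinases and the effector of necroptosis overlapped between the groups. *Ripk1* (plus strand of chromosome 13, 34002363 to 34037147), a kinase and scaffold downstream of death receptors, had 38.9, 35.1, 32.6, 36.2 and 34.7 CPM in PyMT *Pcbp1*+/+ replicates 1 to 5. It ranged from 31.6 to 43.9 CPM with a median of 39.5 CPM in PyMT *Pcbp1*–/– tumors. Both the lowest and the highest tumor were PyMT *Pcbp1*–/– tumors, replicates 2 and 5. The estimated log2 fold change was 0.14 (SE 0.09, 95% interval -0.06 to 0.34, edgeR adjusted p = 0.447). *Ripk1* was the single member whose estimated counts were not all whole numbers; its annotated span shares 432 bases with *Serpinb6a* on the opposite strand and also holds a pair of processed pseudogenes. The spans of *Mlkl* and *Casp8* overlap other annotated genes too, with whole counts, and the cause of the fractions was not tested.

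*Ripk3* (minus strand of chromosome 14, 55784995 to 55788865), the kinase that activates MLKL, had 2.01, 1.23, 2.28, 0.729 and 0.447 CPM in PyMT *Pcbp1*+/+ replicates 1 to 5. It ranged from 0.877 to 2.90 CPM with a median of 1.94 CPM in PyMT *Pcbp1*–/– tumors. These levels rest on 5 to 34 estimated counts per tumor, and PyMT *Pcbp1*+/+ replicates 4 and 5 lay below every PyMT *Pcbp1*–/– tumor. In the test, the log2 fold change was 0.56 (SE 0.40, edgeR adjusted p = 0.483). Its 95% interval, -0.32 to 1.44, was the widest among the necroptosis genes. Without PyMT *Pcbp1*+/+ replicate 3 the estimate was 0.89 and without PyMT *Pcbp1*+/+ replicate 5 it was 0.35.

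*Mlkl* (minus strand of chromosome 8, 111311797 to 111338177), the pore-forming executioner, had 5.39, 9.10, 6.31, 7.02 and 4.20 CPM in PyMT *Pcbp1*+/+ replicates 1 to 5. It stayed within 5.34 to 6.76 CPM, median 6.00 CPM, in PyMT *Pcbp1*–/– tumors. The highest and the lowest tumor were both PyMT *Pcbp1*+/+ tumors, replicates 2 and 5, and the PyMT *Pcbp1*–/– values lay between them. The log2 fold change was -0.09 (SE 0.17, 95% interval -0.46 to 0.28, edgeR adjusted p = 0.815), and it was 0.07 without PyMT *Pcbp1*+/+ replicate 2.

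Among the pyroptosis genes, *Casp1* had the highest fold change, which did not pass the test. *Casp1* and *Casp4* are neighbours on the plus strand of chromosome 9, from 5298517 to 5307265 and from 5308828 to 5336783. *Casp1*, the inflammasome protease, had 6.94, 5.03, 6.48, 5.47 and 5.89 CPM in PyMT *Pcbp1*+/+ replicates 1 to 5. In PyMT *Pcbp1*–/– tumors it ranged from 6.49 to 9.20 CPM with a median of 7.41 CPM. The groups overlapped through PyMT *Pcbp1*+/+ replicate 1, which lay above PyMT *Pcbp1*–/– replicates 1, 3 and 4. A log2 fold change was estimated at 0.35 (SE 0.14, 95% interval 0.04 to 0.65, edgeR adjusted p = 0.208).

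*Casp4*, which encodes the sensor of intracellular lipopolysaccharide, had 5.94, 1.90, 6.22, 6.38 and 3.93 CPM in PyMT *Pcbp1*+/+ replicates 1 to 5. It ranged from 3.58 to 5.07 CPM with a median of 4.11 CPM in PyMT *Pcbp1*–/– tumors. Here PyMT *Pcbp1*+/+ replicates 1, 3 and 4 lay above all PyMT *Pcbp1*–/– tumors and PyMT *Pcbp1*+/+ replicate 2 below all of them. The estimated log2 fold change was -0.18 (SE 0.26, 95% interval -0.74 to 0.38, edgeR adjusted p = 0.751), and it ran from -0.38 without PyMT *Pcbp1*+/+ replicate 2 to -0.04 without PyMT *Pcbp1*+/+ replicate 3.

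*Gsdmd* (plus strand of chromosome 15, 75862327 to 75867408), the pore-forming substrate of both caspases, had 4.20, 1.61, 4.21, 2.37 and 0.982 CPM in PyMT *Pcbp1*+/+ replicates 1 to 5. It ranged from 1.56 to 3.59 CPM with a median of 1.96 CPM in PyMT *Pcbp1*–/– tumors. The lowest and the highest values were again in PyMT *Pcbp1*+/+ tumors, on 11 to 48 estimated counts. In the test, the log2 fold change was -0.19 (SE 0.38, 95% interval -1.02 to 0.63, edgeR adjusted p = 0.826), and without PyMT *Pcbp1*+/+ replicate 3 it was 0.08. By limma-voom with sample quality weights it was -0.49 (adjusted p = 0.356).

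The death receptor genes were not called either. *Casp8* (plus strand of chromosome 1, 58795374 to 58847503), the initiator protease that also restrains necroptosis, had 13.4, 14.0, 13.7, 13.5 and 11.7 CPM in PyMT *Pcbp1*+/+ replicates 1 to 5. It ranged from 11.3 to 17.2 CPM with a median of 13.6 CPM in PyMT *Pcbp1*–/– tumors. The PyMT *Pcbp1*+/+ values lay inside the PyMT *Pcbp1*–/– range, with replicate 5 below the other PyMT *Pcbp1*+/+ tumors. The log2 fold change was 0.08 (SE 0.12, 95% interval -0.18 to 0.33, edgeR adjusted p = 0.767), and it ran from 0.01 without PyMT *Pcbp1*–/– replicate 3 to 0.13 without PyMT *Pcbp1*–/– replicate 1.

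*Fas* (plus strand of chromosome 19, 34290659 to 34327770), the receptor, had 5.21, 1.52, 2.63, 2.55 and 1.96 CPM in PyMT *Pcbp1*+/+ replicates 1 to 5. It ranged from 2.34 to 5.81 CPM with a median of 2.96 CPM in PyMT *Pcbp1*–/– tumors. Replicate 1 of each group stood above the other tumors of that group. A log2 fold change was estimated at 0.26 (SE 0.31, 95% interval -0.41 to 0.94, edgeR adjusted p = 0.687), and it was 0.58 without PyMT *Pcbp1*+/+ replicate 1, 0.11 without PyMT *Pcbp1*+/+ replicate 2 and 0.04 without PyMT *Pcbp1*–/– replicate 1.

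*Tnfsf10* (plus strand of chromosome 3, 27317028 to 27342427), the ligand, had 50.6, 28.9, 49.9, 57.0 and 35.8 CPM in PyMT *Pcbp1*+/+ replicates 1 to 5. It ranged from 33.7 to 68.4 CPM with a median of 36.4 CPM in PyMT *Pcbp1*–/– tumors. PyMT *Pcbp1*–/– replicate 2 was the highest of all tumors, and the other PyMT *Pcbp1*–/– tumors lay at 44.8 CPM or less. The estimated log2 fold change was -0.08 (SE 0.21, 95% interval -0.53 to 0.38, edgeR adjusted p = 0.878), and it ran from -0.25 without PyMT *Pcbp1*–/– replicate 2 to 0.00 without PyMT *Pcbp1*+/+ replicate 3 and 0.01 without PyMT *Pcbp1*+/+ replicate 4. By limma-voom with sample quality weights it was -0.36 (adjusted p = 0.134).

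Within each tumor, *Zbp1* was also set against the other members by the ratio of their estimated counts, which does not depend on the scaling between tumors. The mean log2 ratio of *Zbp1* to *Ripk3* was 4.32 ± 0.686 (SD, n = 5) for wild-type and 2.16 ± 0.623 (SD, n = 6) for knockout tumors. For *Zbp1* over *Mlkl* the wild-type mean was 1.86 ± 0.465 (SD, n = 5) and the knockout mean 0.48 ± 0.275 (SD, n = 6). Each of the 9 ratios was lower in all 6 PyMT *Pcbp1*–/– tumors than in the lowest PyMT *Pcbp1*+/+ tumor, and the differences of mean log2 ratios ran from -2.16 for *Ripk3* to -1.35 for *Tnfsf10*. These ratios share the values of *Zbp1*, were chosen after its values were seen, and are a description with no test.

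Levels of different genes were compared per kilobase of the canonical GENCODE transcript, matched by identifier. In PyMT *Pcbp1*+/+ tumors the order of mean CPM per kilobase was *Zbp1* (12.0 ± 3.92, SD, n = 5), *Tnfsf10* (8.91 ± 2.33), *Ripk1* (5.27 ± 0.343), *Casp8* (4.84 ± 0.331), *Casp1* (3.90 ± 0.502), *Casp4* (3.38 ± 1.34), *Fas* (1.86 ± 0.964), *Mlkl* (1.54 ± 0.442), *Gsdmd* (1.35 ± 0.750) and *Ripk3* (0.707 ± 0.418). Neighbours in this order overlapped between tumors except *Tnfsf10* and *Ripk1*. In PyMT *Pcbp1*–/– tumors *Zbp1* stood at 4.23 ± 0.649 CPM per kilobase (SD, n = 6), number 5 in the order, after *Tnfsf10* (8.46 ± 2.69), *Ripk1* (5.78 ± 0.596), *Casp8* (5.10 ± 0.738) and *Casp1* (4.97 ± 0.683). The other 5 genes kept their places, and again *Tnfsf10* and *Ripk1* were the neighbours without overlap.

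A wider list of 66 cell death genes, written from general knowledge of these pathways, had 63 genes analysed here, of which 54 were tested. Of these, 4 were lower and 0 were higher at an adjusted p under 0.05 (edgeR), against 1.66% and 0.608% of all genes tested. DESeq2 called the same 4 genes lower and 1 higher (*Diablo*), and limma-voom with sample quality weights called 6 lower, with *Tnfrsf25* and *Cflar* added, and 3 higher. Over all genes, the lower and higher shares were 3.09% and 2.12% in DESeq2 and 6.19% and 5.03% in limma-voom. At an unadjusted p under 0.05 in edgeR, 5 were lower and 8 were higher, against 10.5% and 8.19% of all genes. The list had 25 negative and 29 positive log2 fold changes with a median of 0.02, beside -0.00012 for all genes. Of the 4 genes called, 3 belong to the 13 listed brakes on cell death (*Adar*, *Rnf31* and *Rbck1*) and 1 to the 11 genes of mitochondrial apoptosis (*Bcl2l1*).

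**Figure D2:**
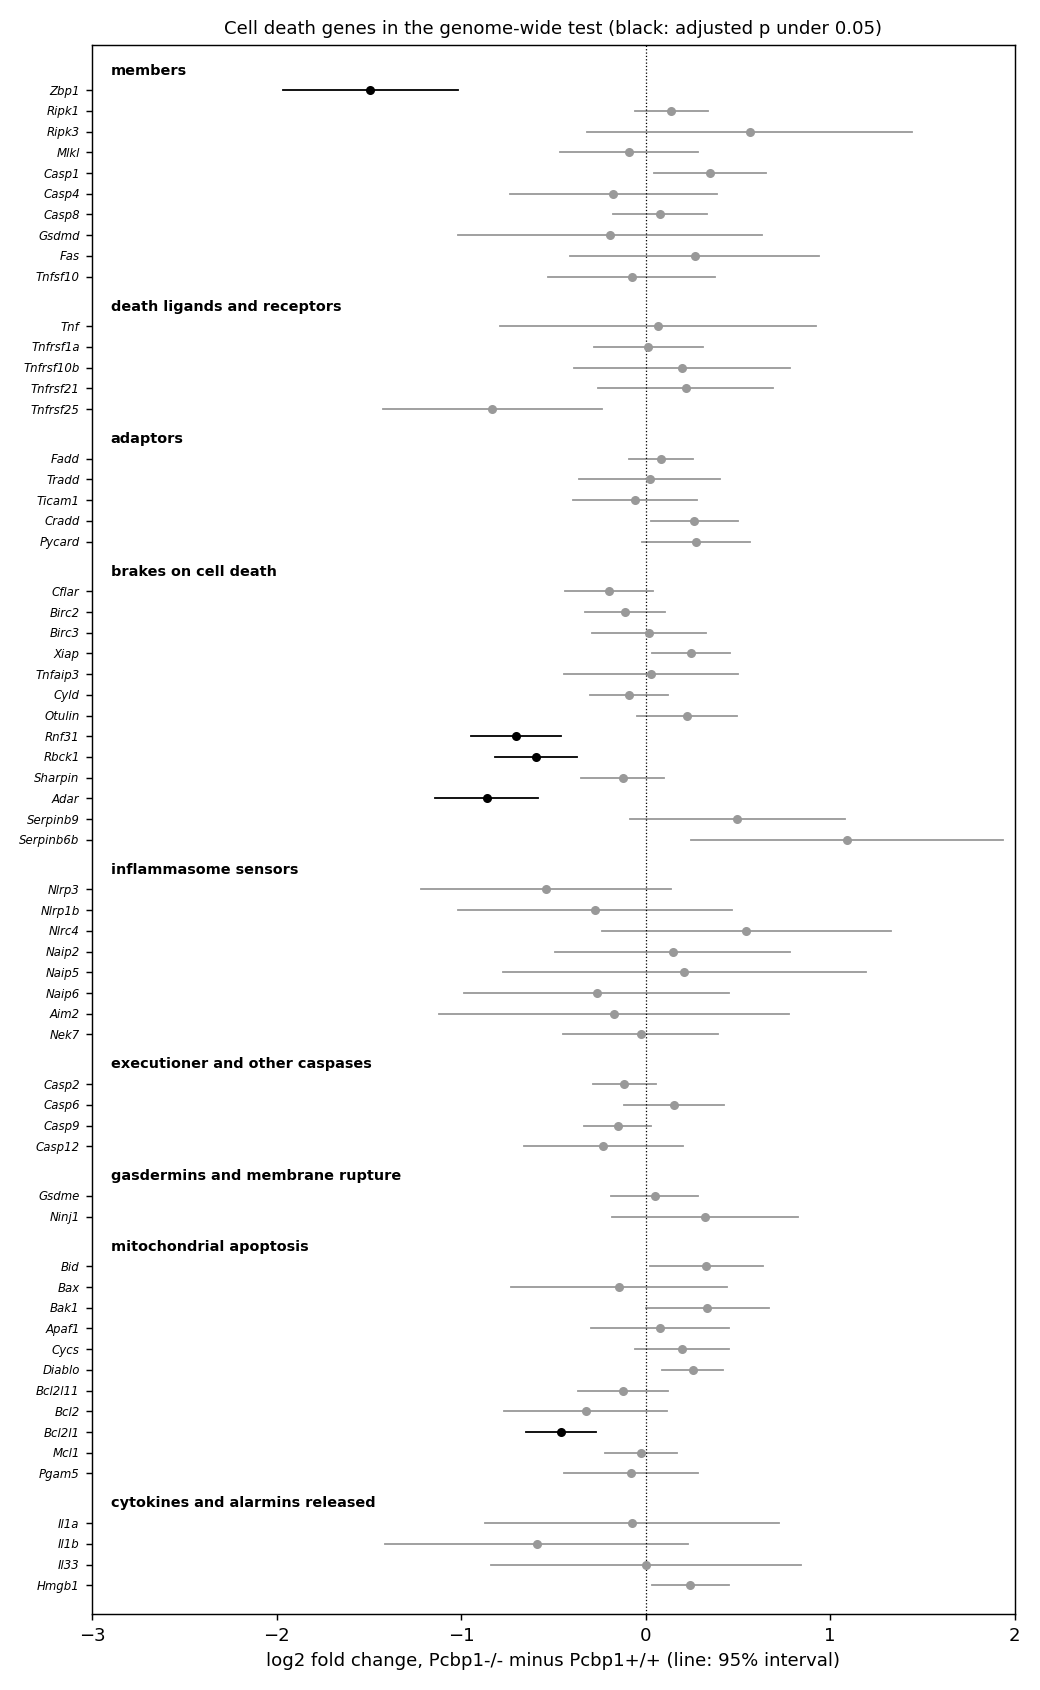
Log2 fold changes (PyMT *Pcbp1*–/– minus PyMT *Pcbp1*+/+, horizontal axis) of the 10 members and of genes of the wider list, grouped by role; points are estimates, lines are 95% intervals, and black marks an adjusted p under 0.05. *Zbp1*, *Adar*, *Rnf31*, *Rbck1* and *Bcl2l1* are black and lie left of 0.

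*Adar* encodes an RNA-editing enzyme that limits the formation of ligands for ZBP1. It lies on the plus strand of chromosome 3, 89715022 to 89753446. It had 108, 121, 123, 117 and 72.4 CPM in replicates 1 to 5 of the PyMT *Pcbp1*+/+ group and 52.3 to 68.8 CPM, median 59.6 CPM, in PyMT *Pcbp1*–/– tumors. The groups did not overlap, and PyMT *Pcbp1*+/+ replicate 5 was again the PyMT *Pcbp1*+/+ tumor nearest to the PyMT *Pcbp1*–/– range. Its log2 fold change was -0.86 (SE 0.13, edgeR adjusted p = 0.00554), and -0.96 without PyMT *Pcbp1*+/+ replicate 5 (edgeR adjusted p = 0.000963). With any single tumor left out, its adjusted p from edgeR was at most 0.0210. The replicate block gave -0.87, still called (edgeR adjusted p = 0.0405).

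*Rnf31* and *Rbck1* encode subunits of LUBAC, the complex that attaches linear ubiquitin chains and restrains death signalling from tumor necrosis factor receptors. *Rnf31* had 24.7, 28.4, 30.8, 26.0 and 22.2 CPM in replicates 1 to 5 of the PyMT *Pcbp1*+/+ group and 14.0 to 17.9 CPM, median 16.6 CPM, in PyMT *Pcbp1*–/– tumors, with no overlap. Its log2 fold change was -0.70 (SE 0.11, edgeR adjusted p = 0.00743). *Rbck1* had 54.8, 58.8, 50.9, 48.2 and 39.8 CPM in replicates 1 to 5 of the PyMT *Pcbp1*+/+ group and 30.1 to 40.1 CPM, median 32.7 CPM, in PyMT *Pcbp1*–/– tumors. The groups met at PyMT *Pcbp1*+/+ replicate 5 and PyMT *Pcbp1*–/– replicate 1. Its log2 fold change was -0.60 (SE 0.10, edgeR adjusted p = 0.0114). Without PyMT *Pcbp1*+/+ replicate 5 the values were -0.74 for *Rnf31* and -0.65 for *Rbck1* (edgeR adjusted p = 0.00807 and 0.00652). With any single tumor left out, adjusted p from edgeR was at most 0.0241 for *Rnf31* and 0.039 for *Rbck1*. With the replicate block *Rnf31* had -0.70 and was still called (edgeR adjusted p = 0.0426). *Rbck1* had -0.57 there and was not called (edgeR adjusted p = 0.0759). The remaining subunit gene, *Sharpin*, had a log2 fold change of -0.12 (SE 0.10, edgeR adjusted p = 0.554).

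*Bcl2l1*, which encodes the survival protein BCL-XL, had 137, 118, 88.1, 113 and 100 CPM in replicates 1 to 5 of the PyMT *Pcbp1*+/+ group and 72.2 to 89.1 CPM, median 80.7 CPM, in PyMT *Pcbp1*–/– tumors. PyMT *Pcbp1*+/+ replicate 3 lay just below the highest PyMT *Pcbp1*–/– tumor, replicate 2. Its log2 fold change was -0.46 (SE 0.09, edgeR adjusted p = 0.0196). Without PyMT *Pcbp1*–/– replicate 3, 4 or 5 its adjusted p from edgeR was 0.0520, 0.0535 and 0.0522, with log2 fold changes of -0.46, -0.46 and -0.43. The call was also lost with library size scaling alone (-0.47, edgeR adjusted p = 0.0559) and with limma on log2(CPM + 1) or log2(CPM + 0.1) (-0.45 and -0.46). With the replicate block *Bcl2l1* had -0.48 and was not called (edgeR adjusted p = 0.0786).

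**Figure D3:**
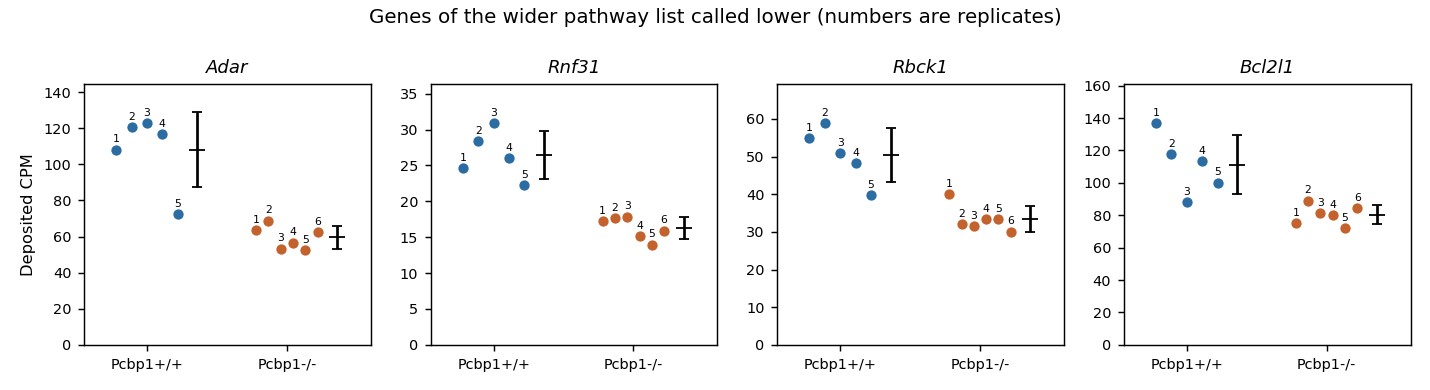
Deposited CPM (vertical axes, each from 0) of the 4 genes of the wider list called lower, in every tumor, with PyMT *Pcbp1*+/+ tumors in blue and PyMT *Pcbp1*–/– tumors in orange; digits are replicate numbers, and bars are the mean ± SD. The groups are apart for *Adar* and *Rnf31* and overlap for *Rbck1* and *Bcl2l1*.

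Other listed genes at the same steps did not pass the test. The receptor for TRAIL, *Tnfrsf10b*, had a log2 fold change of 0.20 (SE 0.27, edgeR adjusted p = 0.736), and -0.05 to 0.40 with a tumor left out. The adaptor *Fadd* had 0.08 (SE 0.08) and the caspase-8 regulator *Cflar* -0.20 (SE 0.11), with edgeR adjusted p = 0.620 and 0.353. The inflammasome adaptor *Pycard* had 0.27 (SE 0.13), and the sensors *Aim2* and *Nlrp3* had -0.17 (SE 0.44) and -0.54 (SE 0.31). These 3 genes had edgeR adjusted p = 0.301, 0.868 and 0.376, and *Aim2* ran from -0.41 to 0.26 with a tumor left out. *Ninj1*, which encodes a mediator of membrane rupture, had 0.32 (SE 0.23, edgeR adjusted p = 0.485), and the cytokine gene *Il1b* had -0.59 (SE 0.38, edgeR adjusted p = 0.428). *Fasl*, the ligand of FAS, and *Il18* were filtered out of the test for low counts, with at most 8 and 12 estimated counts in a tumor.

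In CPM, 3 of the 54 genes lay apart with PyMT *Pcbp1*–/– tumors lower and 1 with PyMT *Pcbp1*–/– tumors higher, against 2.02% and 1.27% of all genes tested. Beside *Adar* and *Rnf31*, the lower one was *Tnfrsf25*, a death receptor gene with a log2 fold change of -0.83 (SE 0.27, edgeR adjusted p = 0.131). The higher one was *Serpinb6b*, a serine protease inhibitor gene, with 1.09 (SE 0.39, edgeR adjusted p = 0.160). Both were singled out after their values were seen.

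The genes whose log2(CPM + 1) values over the 11 tumors were most like those of *Zbp1* were *Ddx58* (Pearson r = 0.984), *Oas1g* (0.983), *Rsad2* (0.981), *Xaf1* (0.980) and *Oasl2* (0.978). With the mean of each genotype removed, the r of these 5 genes with *Zbp1* lay between 0.902 and 0.929. These values are a description of the same 11 libraries that gave the fold changes, in which the genotypes differ and PyMT *Pcbp1*+/+ replicate 5 is low. Over the same tumors, the r of the other 9 members with *Zbp1* ran from -0.546 for *Casp1* to 0.439 for *Gsdmd*. With the mean of each genotype removed, all 9 were positive, from 0.102 for *Casp8* to 0.756 for *Gsdmd*, with *Casp1* at 0.216.

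The ordering of PyMT *Pcbp1*+/+ tumors by *Zbp1* was set beside interferon-stimulated genes, which cells switch on in response to type I interferon. PyMT *Pcbp1*+/+ replicate 5, the lowest PyMT *Pcbp1*+/+ tumor for *Zbp1*, was also the lowest for *Irf7*, *Isg15*, *Ifit1*, *Rsad2*, *Oas2*, *Stat2* and *Irf9*. *Stat2* had 25.4 CPM in that tumor, inside the PyMT *Pcbp1*–/– range of 16.3 to 27.0 CPM. *Stat2* and *Irf9* passed the test with log2 fold changes of -1.42 (SE 0.24, edgeR adjusted p = 0.0113) and -0.85 (SE 0.17, edgeR adjusted p = 0.0254). Without PyMT *Pcbp1*+/+ replicate 5 they had -1.59 and -0.98 (edgeR adjusted p = 0.00131 and 0.00269). *Stat2* was not called with the replicate block (edgeR adjusted p = 0.0564), and *Irf9* was not called without PyMT *Pcbp1*+/+ replicate 1, 3 or 4 or PyMT *Pcbp1*–/– replicate 3, 4 or 5 (edgeR adjusted p = 0.0576 to 0.0689). With any single tumor left out, the log2 fold change of *Irf9* stayed between -0.98 and -0.75. *Irf1* had -0.01 (SE 0.14, edgeR adjusted p = 0.971). The log2 fold changes of *Irf7* (-2.89), *Isg15* (-2.62), *Ifit1* (-2.80), *Rsad2* (-3.05) and *Oas2* (-2.92) were larger in size than the -1.49 of *Zbp1*; these differences between genes were not tested.

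Markers of the cells in a tumor were measured beside these genes, since several members are expressed in macrophages and lymphocytes. Of 10 macrophage markers tested, 1 was lower (*Cd14*, log2 fold change -1.19, SE 0.28, edgeR adjusted p = 0.0481) and 0 were higher in edgeR, with 2 negative and 8 positive log2 fold changes and a median of 0.21. *Cd14* had 310 and 282 CPM in PyMT *Pcbp1*+/+ replicates 1 and 2, and the rest of that group, at 97.3 to 125 CPM, overlapped with the 64.7 to 102 CPM of PyMT *Pcbp1*–/– tumors. It was not called without either of those 2 tumors or without any single PyMT *Pcbp1*–/– tumor (edgeR adjusted p = 0.0679 to 0.1003). The replicate block gave -1.01 (edgeR adjusted p = 0.193) and limma-voom with sample quality weights -0.70 (adjusted p = 0.0861), without a call, while DESeq2 called it (-1.18, adjusted p = 0.00246). The marker with the highest mean was *Lyz2* in PyMT *Pcbp1*–/– tumors (193 CPM) and *Cd14* in PyMT *Pcbp1*+/+ tumors (186 CPM). *Lyz2* had a log2 fold change of 1.02 (SE 0.26, edgeR adjusted p = 0.0657). It was called higher by DESeq2 and limma-voom (adjusted p = 0.00652 and 0.0411) and by limma on log2(CPM + 1) or log2(CPM + 0.1). It was also called higher in edgeR without PyMT *Pcbp1*+/+ replicate 3 (edgeR adjusted p = 0.0202). It was not called in edgeR without any other single tumor (edgeR adjusted p = 0.0704 to 0.1505) or under the other settings (edgeR adjusted p = 0.0540 to 0.0706). The summed level of the 10 markers was 678, 497, 534, 429 and 322 CPM in replicates 1 to 5 of the PyMT *Pcbp1*+/+ group and 417 to 669 CPM, median 524 CPM, in PyMT *Pcbp1*–/– tumors. PyMT *Pcbp1*+/+ replicate 5 was again the lowest. T cell markers summed to 3.48 CPM in that tumor and 5.50 to 10.3 CPM in the rest of its group, against 3.90 to 9.34 CPM in PyMT *Pcbp1*–/– tumors. No marker analysed here was at 0 in all tumors. The part of these cells in the *Zbp1* result was not tested.

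The other lists gave 0 calls in either direction in the main edgeR fit, where the low-count filter left few genes of several lists. The genes tested were 0 for B cells, 1 each for neutrophils, NK cells and skeletal muscle, and 3 for dendritic cells. By limma-voom with sample quality weights, the dendritic cell marker *Clec9a* was lower (log2 fold change -1.56, adjusted p = 0.0269). In the main edgeR fit *Clec9a* had -1.36 (edgeR adjusted p = 0.105), and -1.56 to -0.82 with a tumor left out. The 3 dendritic cell markers tested had 2 negative and 1 positive log2 fold changes, and the most abundant, *Zbtb46*, had 0.11 (SE 0.24). Summed levels in PyMT *Pcbp1*–/– and PyMT *Pcbp1*+/+ tumors were 1.35 to 4.27 and 1.19 to 8.63 CPM for neutrophils, 12.3 to 26.0 and 16.8 to 26.5 CPM for dendritic cells, 1.50 to 5.64 and 1.04 to 4.83 CPM for NK cells. They were 0.0890 to 0.773 and 0.175 to 0.548 CPM for *Cd79b*, the single B cell marker analysed here. Endothelial markers summed to 51.2 to 86.6 and 53.1 to 91.3 CPM, fibroblast markers to 303 to 705 and 285 to 579 CPM, and adipocyte markers to 1.14 to 27.9 and 3.23 to 57.3 CPM. All 6 endothelial and all 5 adipocyte markers had negative log2 fold changes (medians -0.20 and -0.80), while fibroblast markers had 1 negative and 5 positive. Each adipocyte marker, and the endothelial markers *Tek* and *Vwf*, turned positive when some single tumor was left out. Luminal epithelial markers had the highest sums, with 1220 to 2131 and 1478 to 2013 CPM, and the sums were 116 to 351 and 83.1 to 727 CPM for basal markers. The 727 CPM was in PyMT *Pcbp1*+/+ replicate 1, and the rest of its group had 83.1 to 382 CPM. Basal markers had 3 negative and 3 positive log2 fold changes. Skeletal muscle markers reached 26.2 CPM in PyMT *Pcbp1*+/+ replicate 5, against at most 2.01 CPM in the rest of its group, and they were also high in PyMT *Pcbp1*–/– replicates 1 and 4, with 17.3 CPM in replicate 4. Markers of dividing cells summed to 391 to 627 CPM in PyMT *Pcbp1*–/– tumors and 295 to 466 CPM in PyMT *Pcbp1*+/+ tumors, and all 6 had positive log2 fold changes without a call in the main edgeR fit, where *Cdk1* had 0.56 (SE 0.13, edgeR adjusted p = 0.0510). *Birc5* and *Bub1* turned slightly negative when some single tumor was left out (lowest -0.0139 and -0.0148). DESeq2 called *Cdk1*, *Ccnb1* and *Mki67* higher (adjusted p = 0.00642, 0.0129 and 0.0265), and limma-voom called these 3 and *Top2a*. In edgeR, *Cdk1* was called without PyMT *Pcbp1*–/– replicate 1 or PyMT *Pcbp1*+/+ replicate 2 and *Mki67* without PyMT *Pcbp1*–/– replicate 1 (edgeR adjusted p = 0.0323, 0.0327 and 0.0389). *Cdk1* was also called with upper-quartile factors, a filter of at least 1 CPM in at least 5 tumors, or protein-coding genes only (edgeR adjusted p = 0.0458 to 0.0496). The part of dividing cells in the *Zbp1* result was not tested.

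Promoters were also searched for motifs of interferon signalling. RefSeq promoters of GRCm38.p6, windows of 300 bases, were matched for 8 of the 10 members, with 10 promoters in all; *Zbp1* and *Gsdmd* were not matched. Of 32851 windows, 19827 ran from 250 bases before to 50 after the RefSeq gene start. Others lay elsewhere, and the *Casp8* window (chr1:58802252-58802551) lies inside the gene's annotated span. The interferon-stimulated response element was searched as GAAA, any 2 bases and GAAA, and the gamma-activated site as TTCNNNGAA, on both strands. The former occurs in 3.44% of the 32851 promoters and 3.99% of their genes, and the latter in 8.30% and 9.55%. Of the 8 members, 1 held an exact match to the former (*Ripk1*) and 2 held an exact match to the latter (*Ripk1* and *Fas*). Near matches were not counted. In *Fas*, the match TTCTGGGAA lies at chr19:34290566-34290574.

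The promoter of *Ripk1* that holds both motifs (plus strand, chr13:34002624-34002923) is shown as the member with the most matches, beside that of *Rbck1* (minus strand, chr2:152332376-152332675), a called gene chosen after its values were seen. This *Ripk1* window lies inside the gene's annotated span, and the *Ripk1* promoter at the start of that span held neither motif. Of the 4 called genes of the wider list, *Rbck1* alone held an exact match to the response element, in 1 of its 2 promoters. *Adar* held a gamma-activated match in 1 of 3. Capitals mark the matches. In *Ripk1* the response element (bases 246 to 255) overlaps a gamma-activated match (bases 240 to 248), and another lies at bases 143 to 151. In *Rbck1* the response element, on the opposite strand, is at bases 230 to 239.
Ripk1: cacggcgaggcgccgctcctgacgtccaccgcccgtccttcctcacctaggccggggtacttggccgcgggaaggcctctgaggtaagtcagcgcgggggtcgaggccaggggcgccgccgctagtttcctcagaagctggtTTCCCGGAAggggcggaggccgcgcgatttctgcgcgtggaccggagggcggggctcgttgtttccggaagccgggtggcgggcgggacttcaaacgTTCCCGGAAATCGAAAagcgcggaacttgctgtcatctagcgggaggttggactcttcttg
Rbck1: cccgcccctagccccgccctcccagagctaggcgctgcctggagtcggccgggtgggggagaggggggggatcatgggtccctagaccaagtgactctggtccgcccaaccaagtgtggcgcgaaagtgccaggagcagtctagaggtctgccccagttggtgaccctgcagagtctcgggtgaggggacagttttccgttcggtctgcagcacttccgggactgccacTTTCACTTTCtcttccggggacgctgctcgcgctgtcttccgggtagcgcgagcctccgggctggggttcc
A match is a description of letters in this window. No binding data were used here.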

How the data were processed

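The authors sequenced poly(A)-enriched, stranded libraries from 11 tumors as paired-end reads, aligned them to GRCm38 with Bowtie2 and analysed them in Partek Flow. The annotation version and counting method are not given in the sources used here. The authors deposited estimated counts per gene, of which 18.1% to 19.8% per tumor are not whole, and CPM values computed from them. The labels give a single batch, and no libraries were identical.

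After rounding, the estimated counts entered edgeR 4.0.16 (R 4.3.3) for the quasi-likelihood test, using TMM factors, its default low-count filter, genotype as the only term and Benjamini-Hochberg adjustment. The Partek test of the paper was not used. Standard errors were the size of the log2 fold change divided by the root of F. Alternatives were DESeq2 1.42.0, limma 3.58.1 (voom with quality weights, and log2(CPM + 1) or log2(CPM + 0.1)), library size only, upper-quartile factors, no filter, at least 1 CPM in at least 5 tumors, protein-coding genes, a replicate block, and each tumor left out. The scripts were tested on simulated data; the acceptance rule there was changed from the overall share of changed genes recovered to the share among genes with the larger fold change, after the first rule was not met by edgeR. Smaller fold changes were recovered less often.

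Members and gene lists were chosen with earlier results of these data known. Named genes were the members, *Pcbp1*, preset genes and genes chosen by their values from the wider list, the 5 genes most like *Zbp1*, preset interferon-stimulated genes, and cell-type markers, some chosen by their values. Deposited stop positions were taken as 1 base past the gene end. Transcript lengths came from GENCODE vM39, matched by identifier, with no coordinates used. Protein sequences were not used here, and some listed genes are not reported here.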

Additional observations from a re-analysis of the deposited data

Results flagged for a closer look

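Single tumors stood far from the rest of their group in 8 of 66 groups examined (33 genes in each genotype). The measure was the gap to the nearest tumor relative to the group's range, and chance alone gives about 3.3. The groups share the same 11 tumors and some named genes were chosen by their values, so these 2 counts are no test. PyMT *Pcbp1*+/+ replicate 5 accounts for 4 of the 8. It was low for *Casp8* (11.7 CPM, nearest 13.4), *Adar* (72.4 CPM, nearest 108), *Ifit1* (21.6 CPM, nearest 75.0) and *Irf9* (39.5 CPM, nearest 73.6). PyMT *Pcbp1*–/– replicate 1 was high for *Fas* (5.81 CPM, nearest 3.17), *Rbck1* (40.1 CPM, nearest 33.5) and *Il18* (1.03 CPM, nearest 0.355). PyMT *Pcbp1*–/– replicate 2 was high for *Tnfsf10* (68.4 CPM, nearest 44.8). The cause was not tested.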

How the results depend on the processing

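Of 210 log2 fold changes of the members under 21 alternatives, 205 kept their direction and side of the threshold. The exceptions were *Zbp1* under the replicate block and 4 sign changes of uncalled genes. *Mlkl* was 0.0659 without PyMT *Pcbp1*+/+ replicate 2 (range with a tumor left out -0.195 to 0.0659), *Gsdmd* 0.0824 without PyMT *Pcbp1*+/+ replicate 3 (-0.393 to 0.0824), and *Tnfsf10* 0.00408 and 0.00636 without PyMT *Pcbp1*+/+ replicates 3 and 4 (-0.254 to 0.00636). *Zbp1* ranged from -1.66 to -1.34 with a tumor left out (adjusted p = 0.000329 to 0.0201 from edgeR). *Bcl2l1* was no longer called with library size only or with limma on log2(CPM + 1) or log2(CPM + 0.1). Its log2 fold changes there were -0.47, -0.45 and -0.46 (adjusted p = 0.0559 from edgeR, 0.0605 and 0.0622 from limma). *Rbck1* and *Bcl2l1* were not called with the replicate block, at -0.57 and -0.48.

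Over all genes, 319 were called lower and 117 higher. DESeq2 called 700 and 480, and limma-voom with sample quality weights 1190 and 968. Leaving out a tumor gave 144 to 389 lower and 41 to 187 higher genes. The lower count fell to 144, 148, 163 and 212 without PyMT *Pcbp1*–/– replicates 3, 4, 5 and 6, and to 171, 184 and 148 without PyMT *Pcbp1*+/+ replicates 1, 3 and 4. For the wider list, DESeq2 called 1 gene higher and limma-voom 3 (6 lower). The cause was not tested.

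Replicate numbers were checked for pairing in tumors 1 to 5 of each group. Deviations of same-numbered tumors from their group means correlated at 0.134, 0.0867, -0.079, -0.144 and 0.293. PyMT *Pcbp1*+/+ replicates 2 and 5 were most like the same-numbered PyMT *Pcbp1*–/– tumor, and replicates 1, 3 and 4 were most like PyMT *Pcbp1*–/– replicate 6. These 5 values cannot show whether the tumors were paired. With the replicate block, 118 genes were lower and 42 higher, 0 members and 2 genes of the wider list were lower, and *Zbp1* had -1.50 (adjusted p = 0.0532 from edgeR, against 1.20e-07 to 0.00952 over the other alternatives that keep every tumor). The block uses 10 tumors. *Ripk3* and *Gsdmd* had the widest intervals of the members.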
